A study of Mus musculus with 2 samples.

Results

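Small GTPases of the Rab family, SNARE proteins and Vps proteins move cargo between the compartments of a cell. Their transcripts were compared between 2 kinds of T cell sorted from the lymph nodes of mice. The 90 genes were taken by symbol alone, as every gene whose symbol begins with Rab, Vamp, Stx or Vps and a digit, or with Snap and 2 digits. They were represented by 128 of the 11866 probes and by 90 of the 8116 named genes of the deposited value table. By the compartment each protein is best known for, 26 were placed as secretory (ER, Golgi and fusion with the cell surface), 52 as endosomal (endosomes, lysosomes and the return to the Golgi) and 12 as neither.

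One sample was labelled conventional CD4 T cells and the other type 1 invariant NKT cells. The latter are T cells whose receptors vary little and bind lipids held by CD1d. By the labels, both came from lymph nodes of female mice kept free of specific pathogens, and were sorted with magnetic beads or by fluorescence. Strain, age, number of animals and any treatment are not given in the sources used here. Each group held 1 Illumina bead array, so no value has a replicate, no p-value between the samples was possible, and differences are described by size. They are log2 signal of the invariant NKT sample minus log2 signal of the conventional CD4 sample, and 2-fold corresponds to 1 on that scale. In RNA of a bulk population, fewer cells of a type and less RNA per cell cannot be told apart.

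A Rab protein binds GTP on 1 kind of membrane and recruits the motors and tethers that bring a vesicle to it. Fusion then follows when a SNARE on the vesicle, such as a Vamp, zips up with SNAREs of the Stx and Snap type on the target. Vps proteins, named after yeast mutants in vacuolar protein sorting, form the HOPS tether of lysosomes, the retromer and retriever coats that recycle receptors, the GARP and EARP tethers, and the ESCRT complexes that bud vesicles into endosomes. In lymphocytes this machinery recycles the T cell receptor, carries cytokines to the surface and releases the lytic granules of cytotoxic cells.

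The 2 deposited tables disagree for the invariant NKT sample, and markers go against the labels in part. Over the 128 traffic probes, ranks in the value table of the conventional CD4 sample were those of its intensities before normalisation (Spearman's rho of 1 across probes). For the invariant NKT sample the rho was only 0.883 against its own intensities, and 0.885 against those of the other sample. The non-normalized columns differed by at most 0.30 on the log2 scale for any of these probes, and none differed 2-fold. All results below rest on the value table. T cell markers were near equal, with differences from -0.16 to 0.30 for the 4 of 5 on the table. Of the 7 invariant NKT markers, 5 reached the detection level in the conventional CD4 sample and 7 in the other, with summed linear signals of 2840 and 70775. Both CD8 T cell markers on the table were detected in the sample labelled conventional CD4, Cd8b1 at a log2 signal of 15.60 against 9.33. So were 3 genes of the Y chromosome, read as a check of the labelled sex, with Eif2s3y at 11.55, Kdm5d at 9.46 and Uty at 8.35. Eif2s3y was detected in the other sample as well. These signals go against the label of female mice. Summed over the 3 genes, they were 4033 in the conventional CD4 and 905 in the invariant NKT sample on the linear scale. Cd4 itself read 9.61 in the conventional CD4 sample and differed by -0.61. Naive T cell markers (3 of 4 on the table) summed to 31211 in the conventional CD4 and 684 in the invariant NKT sample, with Ccr7, Igfbp4 and Actn1 all lower in the latter. Red cell markers (3 of 4 on the table) summed to 1241 in the conventional CD4 and 74606 in the invariant NKT sample, hepatocyte markers (3 of 5) to 465 and 6146, and neutrophil and mast cell markers (2 of 6) to 280 and 1730. B cell markers (2 of 5) summed to 1279 and 611. Monocyte markers (2 of 6) summed to 727 and 1084 but went opposite ways. Lyz2 was detected only in the invariant NKT sample (difference 1.94) and Ctss only in the conventional CD4 sample (-1.19). Xbp1, the 1 plasma cell marker on the table of 4, read 11.43 and 12.34. The single platelet marker on the table, Itga2b, was below the detection level in both samples. The part of these other cells in any traffic gene's difference was not tested, and every direction depends on the labels.

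**Figure D1:**
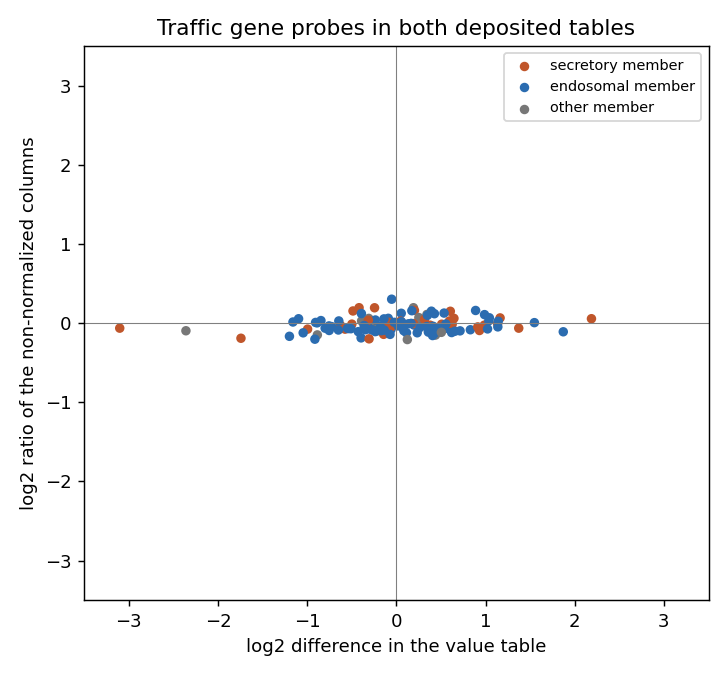
Each of the 128 traffic gene probes is a point, with its log2 difference in the value table on the x axis and the log2 ratio of the 2 non-normalized columns on the same sample order on the y axis. The y values stay within 0.30 of 0, while the x values reach from -3.10 to 2.19.

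Most traffic genes were near equal in both samples. At the detection level of 7.83, the lowest log2 signal with a detection p under 0.01 in the conventional CD4 sample, 85 of the 90 genes were detected in 1 or both samples and 77 in both. The same level was applied to the invariant NKT sample, where it is an estimate. Vps37a, Rab39b, Rab11fip5, Rab23 and Rab40b were detected in neither. Of the 85 detected genes, 7 were 2-fold or more higher in the invariant NKT sample and 5 were 2-fold or more lower. That is 14.1% of the genes, and 19.6% of all 7272 detected genes were called by the same size (9.35% higher and 10.2% lower). The traffic genes as a group therefore had no larger share than the background. Their median difference was -0.07, beside -0.05 for all detected genes, and 40 lay above and 45 below 0.

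The higher genes were Rab1b, Rab6a, Rab19, Rab27a, Vamp8, Vps25 and Vps37c, and the lower ones Stx1a, Rab3ip, Rab10, Vps36 and Snap29. Just inside 2-fold lay Vps37c (1.04) and Rab27a (1.14) on the higher side and Snap29 (-1.10) and Vps36 (-1.16) on the lower. Just outside lay Rab4a (0.99), Stx18 (0.93), Rab2a (-0.995) and Rab5c (-0.91). The only error at hand is the spread between probes of a gene. For the 25 traffic genes with several detected probes, the SD of log2 differences among probes of 1 gene was 0.62, near the 0.63 of 1903 genes overall. A difference of 1 on a single probe is thus less than 2 such SDs. This spread does not cover animals, sorts or arrays.

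**Figure D2:**
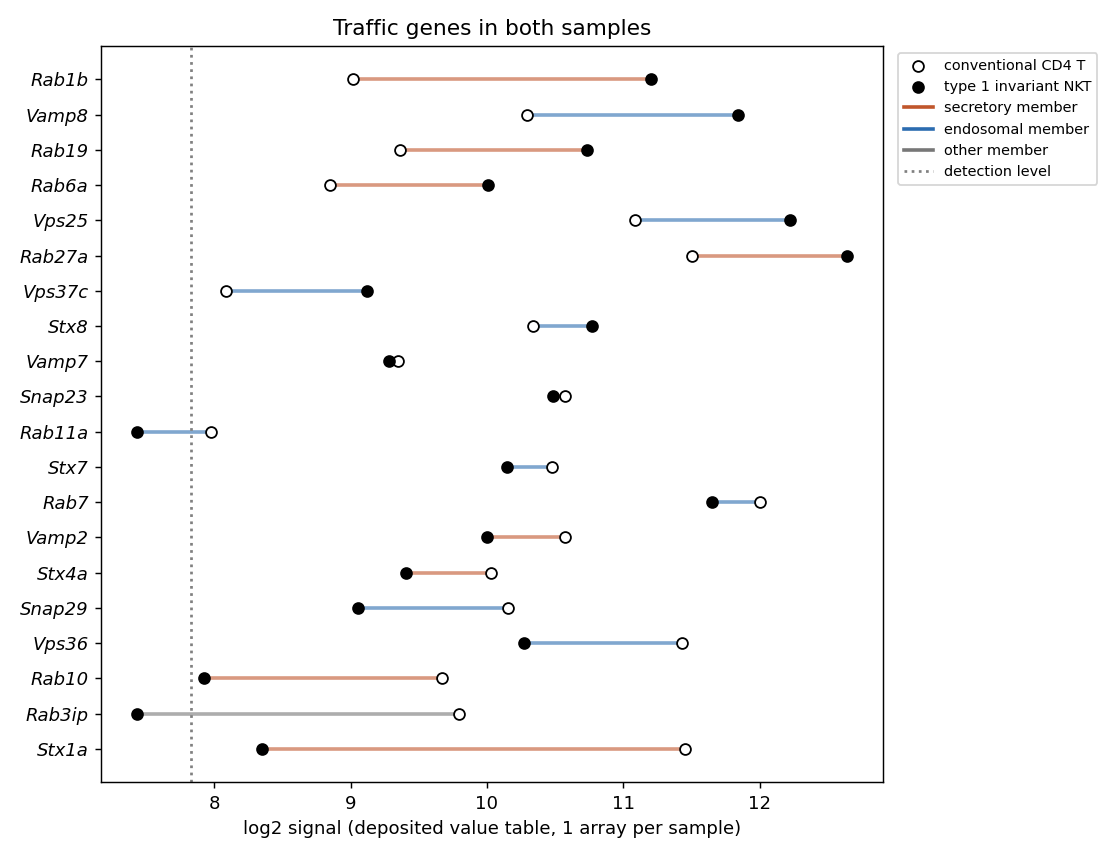
Log2 signals of the 12 genes at 2-fold or more and of the lytic granule route are plotted for the conventional CD4 (open points) and invariant NKT sample (filled points), with the detection level of 7.83 as a dotted line. Stx1a has the widest gap (11.45 against 8.35), while Snap23 and Vamp7 nearly coincide.

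Secretory and endosomal genes had similar medians, 0.02 over 26 detected secretory genes and -0.08 over 50 detected endosomal ones. Of the secretory genes, 4 were 2-fold higher and 2 lower, which is 23.1% of them. Of the endosomal genes, 3 were higher and 2 lower, or 10.0%. The share of all detected genes was 19.6%, which the secretory share was near. The secretory genes parted by protein family. The 17 secretory Rab GTPases had a median of 0.36 with 11 above 0, and the 9 secretory SNAREs a median of -0.31 with 2 above 0. Among endosomal genes, the medians were -0.06 for 17 Rab GTPases, -0.20 for 10 SNAREs and 0.08 for 23 Vps genes. Over both classes and Snap47, 15 of 20 SNAREs lay below 0, where 3912 of the 7272 detected genes did.

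**Figure D3:**
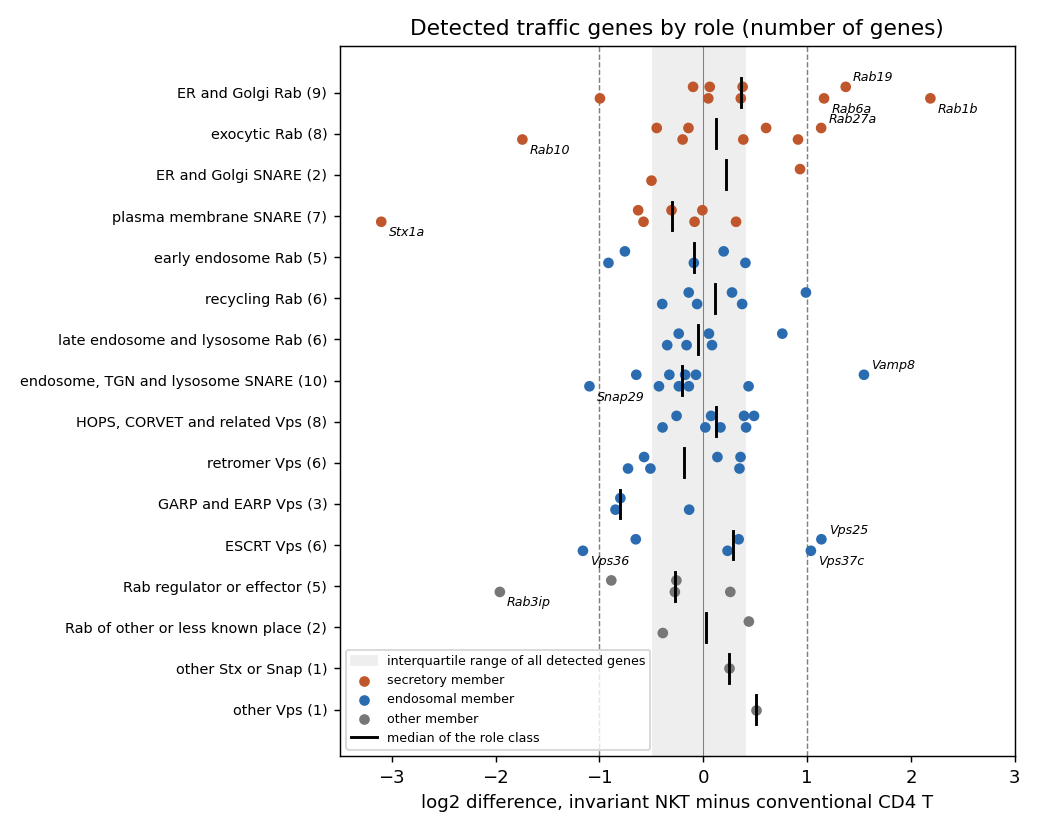
Log2 differences of the 85 detected genes are plotted by role, with a black bar at each role's median, dashed lines at 2-fold and the interquartile range of all detected genes in grey. ER and Golgi Rab genes have a median of 0.36 and plasma membrane SNAREs one of -0.31. Outside the dashed lines lie 3 of the 6 ESCRT Vps genes, where 19.6% of all detected genes were 2-fold apart.

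Among 9 Rab GTPases of the ER and Golgi, 3 were 2-fold or more higher in the invariant NKT sample and 0 lower, where 9.35% of all detected genes were higher. Their differences lay above 0 in 7 of 9, beside 3356 of all 7272. Rab1b, which starts transport from the ER to the Golgi, had log2 signals of 9.02 in the conventional CD4 and 11.21 in the invariant NKT sample, a 4.56-fold difference (2.19). Its second probe was nearly level, at 7.92 and 8.13. Rab1a, the paralogue with the same task, read 8.90 and 9.26, a difference of 0.36. Probe sequences were not used here, so how far each probe tells such close paralogues apart was not tested.

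Rab19, a less studied Golgi Rab, read 9.36 and 10.73, a 2.59-fold difference, and its second probe differed by 0.99 in the same direction. Rab6a, which runs retrograde transport through the Golgi, read 8.85 and 10.01 (2.24-fold), and its other probes differed by 0.51 and 0.60. All probes of Rab19 and Rab6a were thus brighter in the invariant NKT sample. The paralogue Rab6b was level at 9.39 and 9.29. Rab33b, which binds the autophagy protein Atg16l1, read 10.55 and 10.93. Rab18, of the ER and lipid droplets, and Rab43 differed by 0.05 and 0.06. Rab2a, another Rab between ER and Golgi, went the other way, from 12.27 to 11.27.

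The exocytic Rab genes split in both directions. Rab27a docks lytic granules and other lysosome-related organelles at the plasma membrane. It read 11.51 in the conventional CD4 and 12.64 in the invariant NKT sample, 2.20-fold higher by its 1 probe. Rab8b, which carries Golgi cargo to the surface, read 12.89 and 13.80, and its second probe agreed in direction (0.65). Its paralogue Rab8a was level at 14.06 and 13.92. Rab3a and Rab3d, the Rabs of regulated granules in nerve and gland cells, differed by 0.61 and 0.39. Rab10, which delivers glucose transporters and other cargo to the surface, was 3.35-fold lower, at 9.67 and 7.93, although its dimmer probe differed by only -0.42. Rab37 and Rab13 fell short of the detection level in the invariant NKT sample, from 8.28 and 8.03 in the other.

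Rab27a is shown with its upstream sequence because it is the granule-docking Rab and its promoter was the only one among the 12 genes at 2-fold to hold a searched motif. The motifs, searched on both strands in the 250 bases before each RefSeq start (GRCm38.p6), were TCACACCT of T-box factors, TGTGGTT of RUNX factors, CCGGAAGT of ETS factors and TCACGTGA, the CLEAR E-box of lysosomal genes. Promoters were on hand for 74 of the 90 genes, 90 promoters in all. The stretch before 1 of its 2 starts is chr9:73044560-73044809 on the plus strand, with the RUNX and then the T-box letters in capitals, which begin 140 and 132 bases before the start.
Rab27a: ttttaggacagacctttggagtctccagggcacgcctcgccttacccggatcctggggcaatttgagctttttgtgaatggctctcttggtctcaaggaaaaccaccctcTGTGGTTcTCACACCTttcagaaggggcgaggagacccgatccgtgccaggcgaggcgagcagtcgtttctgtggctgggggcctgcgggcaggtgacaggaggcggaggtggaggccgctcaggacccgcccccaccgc
The T-box letters occur in 1.12% and the RUNX letters in 4.40% of all 32851 promoters of this length. A match of letters is a description, and binding was not measured.

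Of 7 plasma membrane SNAREs, 1 was 2-fold lower in the invariant NKT sample and 0 higher, a share of 14.3% beside the 19.6% of all detected genes. Differences lay below 0 in 6 of the 7, some of them close to 0, and in 3912 of all 7272. Stx1a, the target SNARE of neurotransmitter release, had the widest difference of all traffic genes. It read 11.45 in the conventional CD4 and 8.35 in the invariant NKT sample, 8.58-fold lower by its 1 probe. The other genes stayed within 2-fold. Stx4a, a target SNARE at the surface of many cells, read 10.03 and 9.40. Vamp2, a vesicle SNARE that partners it, read 10.57 and 10.00. Snap23, the third SNARE of such complexes, was level at 10.57 and 10.49. Vamp1 differed by -0.31 at its brightest probe and Stx2 lay at the detection level in the conventional CD4 sample. Vamp5 was the exception above 0, at 0.32.

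The ER and Golgi SNAREs had 2 members on the table. Stx18, which acts in return to the ER, read 9.12 and 10.05, a difference of 0.93. Stx5a, the central Golgi syntaxin, gave opposite readings, 13.36 and 12.86 at the brighter probe but 9.05 and 9.67 at the other.

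Of 17 detected Rab GTPases of endosomes, 0 were 2-fold apart, beside 19.6% of all detected genes. Their differences ranged from -0.91 for Rab5c to 0.99 for Rab4a, both just short of 2-fold. Rab5 proteins define the early endosome. Rab5c read 12.57 in the conventional CD4 and 11.65 in the invariant NKT sample, and Rab5a read 10.98 and 10.89, with -0.91 at its second probe. Rab21, which recycles integrins, read 10.44 and 9.69. Rab22a and Rab31 lay slightly above 0, at 0.20 and 0.41.

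Among recycling Rabs, Rab4a, which returns receptors quickly to the surface, read 9.77 and 10.76, just short of 2-fold. Its paralogue Rab4b differed by 0.28. Rab11b, of the slow recycling route, was level at 14.21 and 14.15. Rab11a read 7.97 in the conventional CD4 sample and lay below the detection level in the other. Rab14 differed by 0.37 and Rab35 by -0.40.

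Rab7, the master Rab of late endosomes and lysosomes, read 12.00 and 11.65 at its brightest probe, while its other probes differed by 0.58 and 0.89. The probes of Rab9, which sends receptors from late endosomes back to the Golgi, were opposite at 1.04 and -1.04, and each was below the detection level in 1 sample, so no direction is given. Rab29, Rab12, Rab24 and Rab32, of lysosomes and related organelles, ranged from -0.24 to 0.08 at their brightest probes. The dimmer probes of Rab24 differed by 0.11 and 0.83.

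Of 10 endosomal SNAREs, 1 was 2-fold higher and 1 lower, which is 20% beside 19.6% of all detected genes. Most of the others differed by less than the SD between probes. Vamp8 mediates fusion of late endosomes and of secretory granules. Its brighter probe read 10.30 in the conventional CD4 and 11.84 in the invariant NKT sample (2.92-fold), but its second probe was level at 9.17 and 9.23. Stx8, a SNARE of late endosomes, was brighter at all 4 probes, by 0.44, 0.62, 1.02 and 1.87. Stx8 did not reach 2-fold by its brightest probe (0.44), which stood for the gene, or by the mean of its probes (0.99). Snap29, which joins autophagosomes to lysosomes, was 2.14-fold lower, at 10.15 and 9.06. Stx6, of the Golgi and endosomes, read 9.30 and 8.65, and Vamp3, of recycling endosomes, 11.73 and 11.30. Stx7 and Vamp7, both of late endosomes, differed by -0.33 and -0.07. Stx12, Stx17 and Vamp4 differed by -0.24, -0.17 and -0.14.

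**Figure D4:**
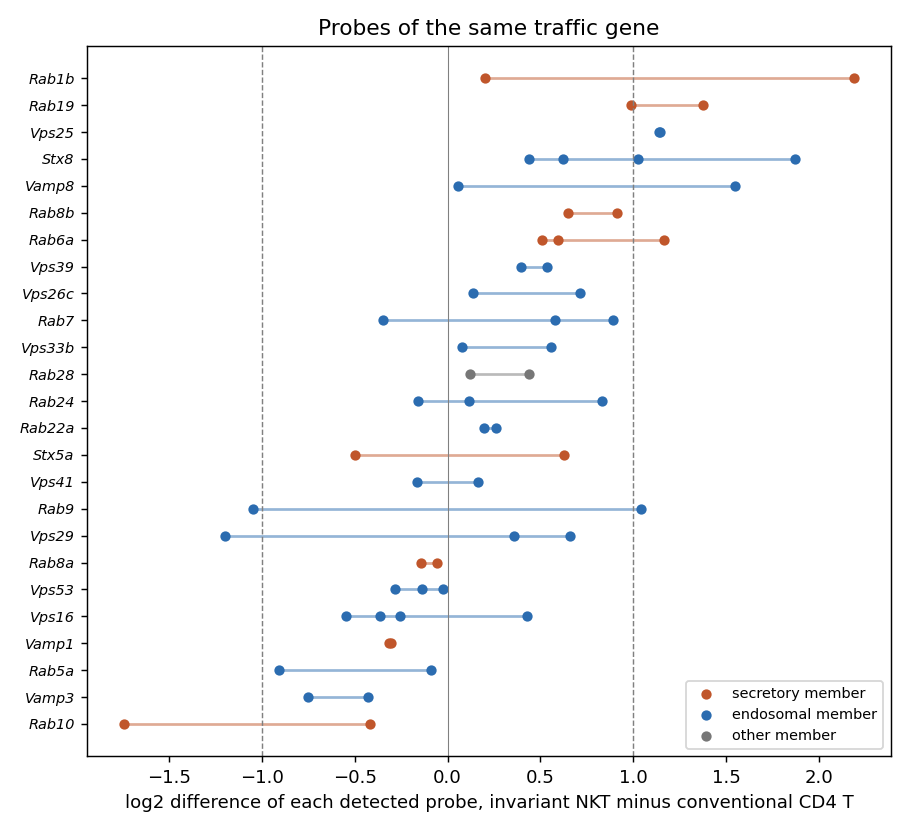
Log2 differences of each detected probe are plotted for the 25 traffic genes with several, with a line joining the probes of a gene and dashed lines at 2-fold. The probes of Vps25 coincide at 1.14, those of Stx8 reach from 0.44 to 1.87, and those of Rab9 lie on opposite sides of 0.

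Of 6 detected ESCRT Vps genes, 2 were 2-fold higher and 1 lower, which is 50% of a small group beside 19.6% of all detected genes. They had the widest range of the Vps groups, and subunits of a complex went opposite ways. The SD between probes of a traffic gene, 0.62, applies to these differences too. ESCRT-II holds Vps25, Vps36 and Snf8. Vps25 read 11.09 in the conventional CD4 and 12.22 in the invariant NKT sample, and its second probe 10.39 and 11.53, 2.20-fold higher at the brighter probe. Vps36, which binds ubiquitin and lipid, read 11.43 and 10.27, 2.23-fold lower. Snf8, whose symbol is outside the gene set, read 9.11 and 8.50. In ESCRT-I, Vps37c was 2.05-fold higher, from 8.08 to 9.12, and its paralogue Vps37b read 13.03 and 13.37. Vps28 was level at 14.73 and 14.96, and Tsg101, outside the set, read 9.87 and 9.05. Vps4a, the ATPase that takes ESCRT-III apart, read 10.24 and 9.59.

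Retromer and retriever recycle cargo from endosomes and share the subunit Vps29. The retromer subunits Vps35 and Vps26a were dimmer in the invariant NKT sample, at 9.77 against 10.50 and at 11.55 against 12.06, and Vps26b was detected only in the conventional CD4 sample, at 8.40. The retriever subunits Vps35l and Vps26c differed by 0.35 and 0.14. The dimmer probe of Vps26c differed by 0.71 and was below the detection level in the conventional CD4 sample. Vps29 read 12.26 and 12.62, but its 3 probes ranged from -1.20 to 0.66. None of these reached 2-fold at its brightest probe.

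GARP and EARP tether vesicles that return from endosomes, and all 3 of their subunits on the table were dimmer in the invariant NKT sample. Vps54, found in GARP, read 11.51 and 10.66, and Vps50, found in EARP, 9.50 and 8.70. Vps53, which both share, read 12.29 and 12.15. Genes of the tethers HOPS and CORVET and their relatives stayed closer to 0. They ranged from -0.39 for Vps11 to 0.49 for Vps45, a regulator of endosomal SNAREs, with Vps18, Vps33a, Vps33b, Vps39 and Vps41 above 0 and the brightest probe of Vps16 at -0.26.

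The CLEAR E-box was found in promoters of endosomal genes. It is shown because it is the motif known for binding of Tfeb, a regulator of lysosomal genes in cultured mammalian cells. The letters occurred in 7 of 46 promoters of endosomal genes (15.2%), in 0 of 30 promoters of secretory ones and in 0.785% of all promoters. No test was made of these shares. The 7 promoters belong to 6 genes. Each is shown from RefSeq (GRCm38.p6) on the gene's strand, with the motif in capitals and up to 20 bases on either side.
Rab21 (chr10:115315595-115315642, minus): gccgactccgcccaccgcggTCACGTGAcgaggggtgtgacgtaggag
Rab5a (chr17:53479118-53479165, plus): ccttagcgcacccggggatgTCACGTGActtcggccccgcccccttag
Stx6 (chr1:155158597-155158644, plus): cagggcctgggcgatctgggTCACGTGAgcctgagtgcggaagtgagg
Vps16 (chr2:130424281-130424319, plus): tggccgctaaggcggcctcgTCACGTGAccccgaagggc
Vps26a (chr10:62486961-62487008, minus): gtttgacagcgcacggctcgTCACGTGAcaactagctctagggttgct
Vps33a (chr5:123573017-123573064, minus): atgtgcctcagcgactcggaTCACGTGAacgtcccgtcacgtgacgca
The letters occur again at the end of the Vps33a stretch, and Vps26a holds them at another start too. None of the 6 genes was 2-fold apart. Rab21, Stx6, Vps26a, Vps16 and Rab5a differed by -0.75, -0.65, -0.51, -0.26 and -0.09, and Vps33a by 0.02.

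Among the Rab regulators in the set, Rab3ip stood apart. It encodes Rabin8, the exchange factor that activates Rab8. It read 9.79 in the conventional CD4 sample and lay below the detection level in the invariant NKT sample, at least 3.89-fold lower. Rab3gap1, which acts on Rab3 and Rab18, read 12.37 and 11.49. The Rab11 effectors Rab11fip2 and Rab11fip3 differed by -0.26 and -0.27, and Rab5if by 0.26. Of the remaining genes, Rab28, Rab40c and Snap47 differed by 0.44, -0.39 and 0.25. Vps72, which despite its symbol encodes a chromatin protein, differed by 0.50.

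The route of lytic granules was followed as a list of its own. Of 10 detected genes in the set (Rab27a, Rab11a, Rab7, Vamp2, Vamp7, Vamp8, Stx4a, Stx7, Stx8 and Snap23), 2 were 2-fold higher and 0 lower, which is 20% beside 19.6% of all detected genes, and the median was -0.11. The list of granule release genes outside the set had 23 detected genes, of which 5 were higher and 2 lower (30.4%), with a median of 0.10. It included 3 synaptotagmin-like proteins that bind Rab27 on granules, and all were 2-fold higher together with Rab27a. Sytl2 read 10.52 in the conventional CD4 and 13.19 in the invariant NKT sample (6.35-fold), with 0.66 at its dimmer probe. Sytl1 read 9.66 and 11.00, and Sytl3 9.44 and 10.65 with both of its other probes brighter as well. Unc13d, the priming factor that also binds Rab27a, was not higher, at 11.12 and 10.52. Stxbp2, the partner of the granule SNAREs, was level at 12.64 and 12.75. Nkg7, a granule membrane protein, read 13.95 and 15.53. Prf1, Srgn and Lamp1 of the same list stayed within 2-fold. Prf1 differed by -0.24 at its brighter probe and 0.28 at the other, Srgn by 0.10 and Lamp1 by -0.51. Dtnbp1 and Bloc1s6, both of the BLOC-1 complex that forms lysosome-related organelles, were opposite, at 2.86-fold higher and 2.07-fold lower. Lamp2, a lysosomal membrane protein, was 2.68-fold lower at its brightest probe, while its other probes differed by -1.81, -0.22 and -0.22. The CD8 marker Cd8b1 differed by -6.27 and the naive T cell marker Ccr7 by -4.92, and the part of either cell type in these differences was not tested.

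Other fusion factors and Rab regulators also went both ways. Of 24 detected SNAREs and fusion factors outside the set, 5 were higher and 2 lower (29.2%, median 0.15), and the higher ones included the 3 Sytl genes. Gosr1, a Golgi SNARE, read 10.00 and 8.66, and Bnip1, an ER SNARE, 8.34 and 9.58. Vapa and Vapb, paralogous ER anchors for lipid transfer proteins, were opposite, at 9.89 and 8.05 for Vapa and 9.51 and 10.65 for Vapb. Of 40 detected Rab regulators, 4 were higher and 4 lower, with a median of -0.0024, and this share of 20% is near the 19.6% of all detected genes. Dennd2d, of a family that loads GTP onto Rabs, read 11.02 and 7.99, 8.19-fold lower. Dennd5a of the same family was 2.64-fold higher. Tbc1d15, a GTPase activator for Rab7, was 2.78-fold and Tbc1d23 2.45-fold lower. Rabac1, Rilpl2 and Rin2 were higher by 1.18, 1.26 and at least 1.19, and Plekhm1, a Rab7 effector, differed by -1.20.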

How the data were processed

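Per the labels' protocols, RNA was purified with an RNeasy kit and biotinylated cRNA was made with Illumina's TotalPrep kit. GenomeStudio 2009.2 is named in the submitters' processing notes, and the normalisation is not stated in the sources used. A table of 25697 probes was deposited by the authors with a bead intensity per sample and, per the file headers, a detection p-value after each intensity. A second deposited table, the value table, holds log2 values of 11866 probes, from 6.89 to 16.07. Its sorted columns agree within 0.00025 and have medians of 9.07, as after quantile normalisation.

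Symbols came from the platform annotation (11155 probes with 1 symbol), and all 90 genes were found in RefSeq. The probe with the highest mean stood for a gene. Signals below the detection level were raised to it before the difference was taken, which makes such folds lower bounds. Background left in the values understates folds of dim genes. Text names all genes at 2-fold or more, their paralogues, those nearest to 2-fold, the lytic granule route and the brightest gene of each role. Genes, roles and lists were chosen with earlier results of these data known. The number of arrays limits the precision. The calculation was checked on simulated data with known changes in bright genes and little noise. That check covers the code and not the reliability of any call. Python 3.11.15, pandas 2.3.3 and, for an alternative, neqc of limma 3.58.1 (offset 16) in R 4.3.3 were used.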

Additional observations from a re-analysis of the deposited data

How the results depend on the processing

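No paired analysis was possible because each group has 1 array. Counts of higher and lower traffic genes stayed within 1.5 times when probes of a gene were averaged, with a detection p under 0.05, no detection filter, genes detected in both samples and without genes of opposed probes. With background of 168.6 subtracted they became 11 and 9 of 85, and those of all genes 1125 and 1316 of 7274. At 1.5-fold the counts of traffic genes were 12 and 15 of 85. The share of all genes at 1.5-fold was not calculated, so these counts cannot be read as many or few. With the non-normalized table by neqc, whose second column disagrees with the value table, 0 traffic genes and 0 of all genes were 2-fold apart. The 12 genes at 2-fold all lay within 0.20 of 0 there, so small that their signs carry no direction. Before neqc, the log2 ratios of the intensities of the traffic probes had an SD of 0.094. Of the 12 genes, Rab19 (-0.063), Snap29 (0.11) and Vps36 (0.060) had the opposite sign after neqc. When probes were averaged, Rab10 (-0.94), Rab6a (0.76) and Vamp8 (0.80) fell short of 2-fold, and with background subtracted Rab2a (-1.05), Rab4a (1.15) and Stx18 (1.20) passed it. The secretory median was 0.36 over Rab GTPases and -0.31 over SNAREs, and the endosomal one -0.20 over SNAREs and 0.075 over Vps genes. The causes were not tested. Signal close to background limits dim genes such as Rab11a, Rab13, Rab37 and Stx2.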

Other observations

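Coats and tethers of vesicles were described as lists of their own. Of 43 detected coat genes of COPI, COPII and clathrin adaptors, 1 was 2-fold higher and 0 lower, which is 2.33% beside 19.6% of all detected genes. The exception was Ap2s1, the small subunit of the AP-2 adaptor of endocytosis, at log2 signals of 11.49 in the conventional CD4 and 13.15 in the invariant NKT sample. Of 30 detected tethers, 2 were higher and 1 lower (10.0%), with a median of -0.24. The exocyst, which tethers secretory vesicles at the surface, held differences in both directions, with Exoc4 at 8.36 and 10.40 and Exoc6 at 9.92 and 8.53. Trappc3, of the TRAPP complexes that activate Rab1, read 10.78 and 11.81.

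Sorting nexins and lipid kinases of endosomes had 26 detected genes, 2 of them higher and 4 lower, with a median of 0.03. Their share of 23.1% was near the 19.6% of all detected genes. Snx1, a partner of retromer, read 9.12 in the conventional CD4 sample and lay below the detection level in the other. Snx4, which recycles the transferrin receptor, read 12.48 and 11.29. Snx10 and the lipid phosphatase gene Mtmr2 were lower as well, with differences of -1.14 and -1.27, and the higher genes were Snx18, at 10.71 and 11.77, and Snx20, at 9.70 and 10.70. Among 17 ESCRT genes without a Vps name, 2 were higher and 1 lower, and this share of 17.6% was also near 19.6%. Chmp4b, the main filament subunit of ESCRT-III, was 3.99-fold higher, and its second probe read 9.61 and 11.12, and Mvb12b, of ESCRT-I, differed by 1.21, while Chmp3, of the same filament as Chmp4b, differed by -1.07.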
